A study of Rattus norvegicus with 12 samples.

Results

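The secreted Wnt antagonists measured here were the 5 secreted frizzled-related proteins Sfrp1, Sfrp2, Sfrp4, Sfrp5 and Frzb (also called Sfrp3), the Wnt inhibitory factor Wif1, and 3 of the Dickkopf genes, Dkk1, Dkk2 and Dkk3. These 9 genes were chosen by name from 14300 genes that have a transcript cluster of their own symbol on the array, and each had a single cluster among 27342. RNA came from 3 cartilage zones of the proximal tibia of 10-day-old Sprague-Dawley rats, cut by hand with a razor blade from eosin-stained frozen sections, and was hybridized to 12 arrays of the type Rat Gene 1.0 ST (Affymetrix), 4 for each zone. The superficial zone (SZ) and the intermediate/deep zone (IDZ) belong to articular cartilage, and the resting zone (RZ) is the reserve layer of growth plate cartilage. A single animal (both tibias) gave the tissue of an SZ array, whereas 2 animals were pooled for an IDZ or RZ array. The zones were the sole contrast. The labels give the same animals for IDZ and RZ arrays that carry one number, and the SZ animals were 4 of these 8. The intermediate and deep zones were not separated, since they are hard to tell apart in sections at this age.

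Wnt proteins are secreted ligands that bind Frizzled receptors together with the co-receptors Lrp5 and Lrp6, and in the best-known branch of the pathway this stabilizes β-catenin, which then acts with TCF and LEF factors in the nucleus. Secreted frizzled-related proteins and Wif1 bind the Wnt ligands themselves, frizzled-related proteins through a domain related to that of Frizzled receptors. Dkk1 and Dkk2 bind Lrp5 and Lrp6 instead, and Dkk3 is a divergent relative whose place in the pathway is less clear. In cartilage the balance between Wnt signals and their inhibitors influences whether chondrocytes remain immature or proceed to hypertrophy, and Frzb was first isolated from articular cartilage.

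Values are log2 expression, so a difference of 1 is a 2-fold difference, and the level of a gene is compared between zones and not set against the level of another gene. The array medians lay between 6.76 and 6.90. SZ replicate 4 stood apart from its zone, with the narrowest interquartile range of the 12 arrays (2.24) and the lowest mean correlation with the other arrays of its zone (0.973), and the members are therefore also given without it where that changed a call. Prg4, the lubricin gene that marks the joint surface, measured 12.53 to 12.97 in SZ, 8.86 to 10.95 in IDZ and 5.24 to 6.40 in RZ, and the 7 chondrocyte genes measured (such as Acan and Col2a1) averaged 11.76 to 12.12 in SZ, 12.87 to 12.93 in IDZ and 12.81 to 12.95 in RZ. The SZ arrays also had higher levels of genes of other tissues, and these are given beside the members that were high in SZ.

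The 9 antagonists did not follow a common zonal pattern. Wif1 and Dkk3 were highest in SZ and lowest in RZ, with mean differences between these zones of 14.5-fold and 19.5-fold. Sfrp5 ran the opposite way and was 12.6-fold lower in SZ than in RZ. Sfrp1 and Dkk1 were highest in IDZ, Frzb was lower in SZ than in both other zones, and Sfrp2 was 1.88-fold higher in SZ than in RZ. Sfrp4 and Dkk2 differed by less than 1.5-fold between any 2 zones and lay below the median of the array on all 12 arrays.

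**Figure D1:**
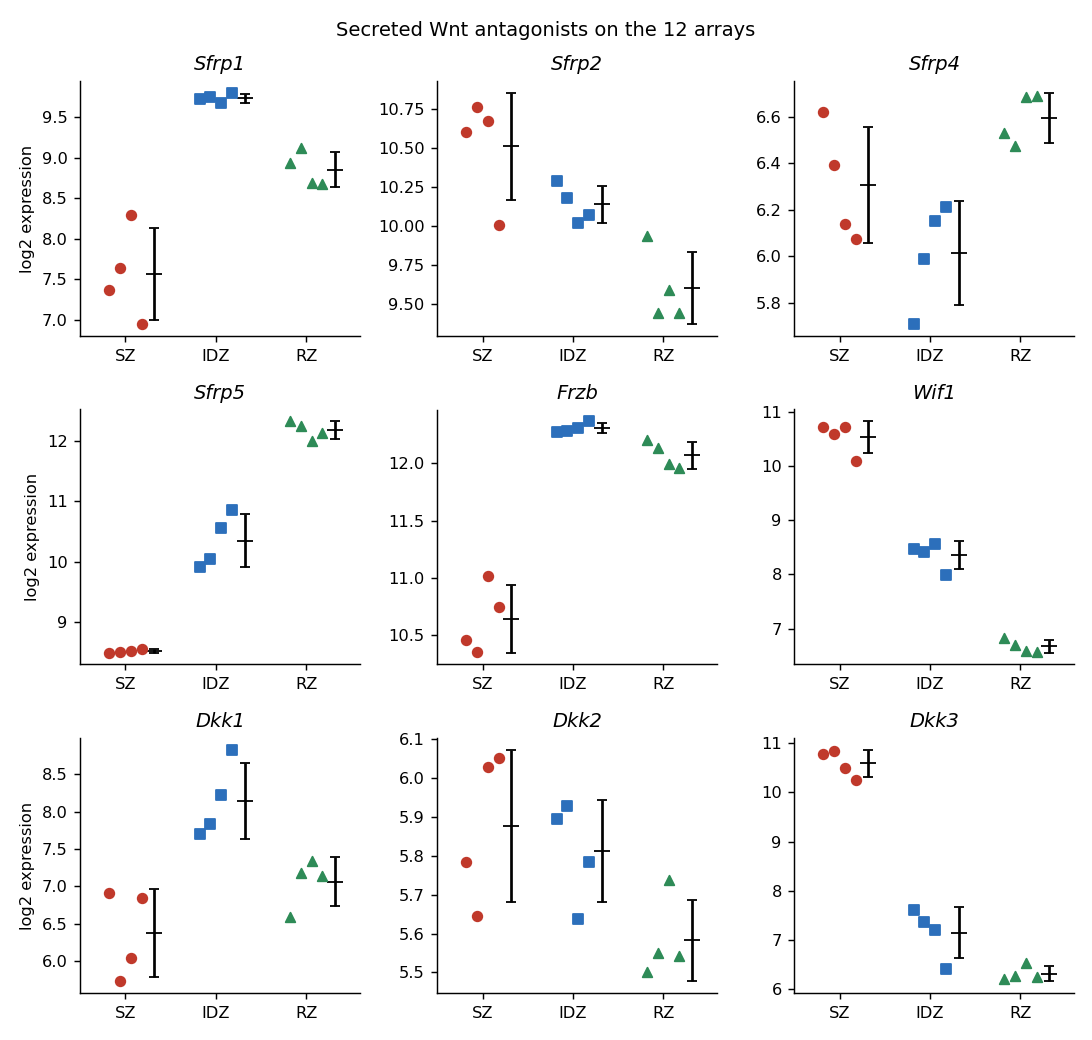
Log2 expression of the 9 secreted Wnt antagonists on each array, with red circles for SZ, blue squares for IDZ and green triangles for RZ, and bars for the mean and SD of the 4 arrays of a zone (each panel has its own scale). Wif1 and Dkk3 sit highest in SZ, Sfrp5 in RZ, and Sfrp1 and Dkk1 in IDZ.

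Each gene was tested in limma with 1 mean per zone over all 12 arrays and Benjamini-Hochberg adjustment over all clusters, and called at an adjusted p under 0.05. Between SZ and IDZ, 6 of 9 members were called (2 higher and 4 lower in SZ), where 23.0% of all clusters were called (11.8% higher and 11.2% lower in SZ). All 6 also passed a minimum of 2-fold, which 3.94% of all clusters did (2.96% higher and 0.977% lower in SZ). Between IDZ and RZ, 6 of 9 were called (4 higher and 2 lower in IDZ) against 6.73% of all clusters, of which 2.78% were higher and 3.95% lower in IDZ. With the 2-fold minimum 3 members remained, Wif1, Dkk1 and Sfrp5, and 0.918% of all clusters (0.519% higher and 0.399% lower in IDZ). Between SZ and RZ, 6 of 9 were called (3 higher and 3 lower in SZ) against 21.1% of all clusters (10.0% higher and 11.1% lower in SZ), and 5 of them, 2 higher and 3 lower, passed 2-fold against 4.54% (3.19% higher and 1.35% lower in SZ). With an unmoderated one-way fit 4 of the 6 calls between IDZ and RZ were lost (Sfrp1, adjusted p = 0.084, Sfrp4, 0.057, Dkk1, 0.12, and Dkk3, 0.099). The median size of the difference over the members was 1.76 for SZ against IDZ, 0.84 for IDZ against RZ and 1.29 for SZ against RZ, where the medians over all clusters were 0.17, 0.12 and 0.14. In the same order the signed medians over the members were 0.07, 0.54 and -0.29, and those over all clusters were -0.08, 0.03 and -0.03. Among the 14300 genes, which like the members have a symbol, 26.6%, 8.80% and 26.7% were called in these comparisons without the fold minimum. The 3 comparisons share arrays and are not independent of each other.

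**Figure D2:**
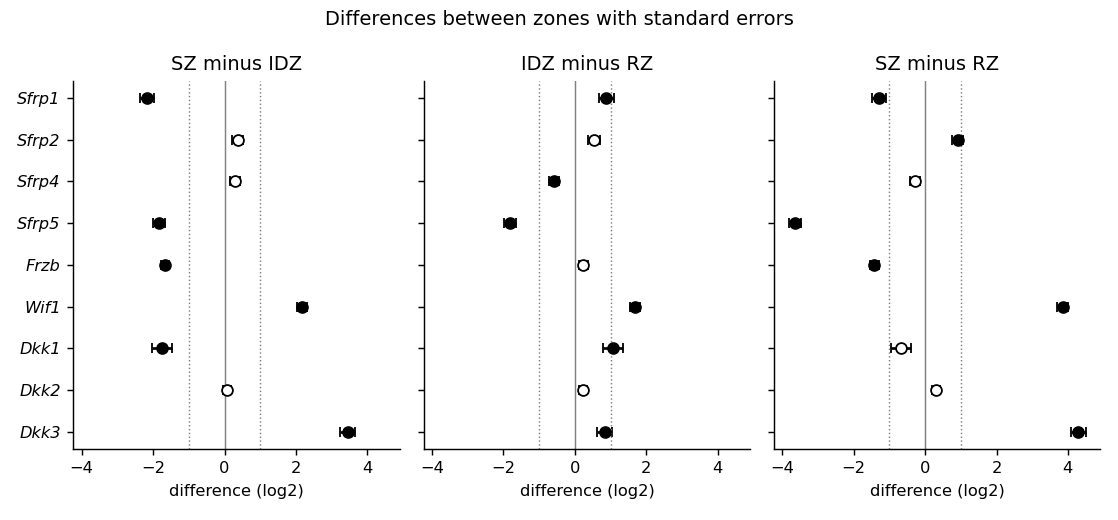
Differences in log2 expression between zones for each antagonist with standard errors from limma, with filled points for an adjusted p under 0.05, open points for those that did not pass it, and dotted lines at 2-fold. The points of Wif1 and Dkk3 lie right of 0 in the 3 panels and those of Sfrp5 left of 0, while Sfrp1 and Dkk1 change side between the first panel and the second.

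Among the antagonists that bind Wnt ligands, Wif1 (cluster 10895688) formed 3 separate steps. It measured 10.71, 10.59, 10.72 and 10.10 in SZ, 8.48, 8.41, 8.56 and 7.99 in IDZ and 6.82, 6.71, 6.58 and 6.58 in RZ. No array of one zone overlapped with another zone. SZ exceeded IDZ by 2.17 ± 0.15 on the log2 scale (difference ± standard error, as for all differences tested in limma, adjusted p = 7e-08). IDZ was in turn higher than RZ by 1.68 ± 0.15 (adjusted p = 4.1e-06), and SZ was higher than RZ by 3.86 ± 0.15 (adjusted p = 1e-10). The resting zone values lay close to the array medians.

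Sfrp5 (cluster 10715448), a frizzled-related protein close in sequence to Sfrp1 and Sfrp2, showed the reverse order. It measured 8.50, 8.50, 8.53 and 8.56 in SZ, 9.91, 10.05, 10.56 and 10.86 in IDZ and 12.33, 12.25, 11.99 and 12.12 in RZ. The zones again did not overlap, and the 4 SZ arrays were nearly identical (SD 0.03) while the IDZ arrays spread widely (SD 0.44). SZ was lower than IDZ by 1.83 (difference -1.83 ± 0.17, adjusted p = 1.1e-06 in limma), IDZ was lower than RZ by the same amount (-1.83 ± 0.17, adjusted p = 5.1e-06), and the difference of SZ from RZ was -3.65 ± 0.17 (adjusted p = 5.3e-10). The size of the step between neighbouring zones was thus 3.55-fold on both sides of IDZ.

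The highest values of Sfrp1 (cluster 10792344) were found in IDZ. It measured 7.38, 7.64, 8.29 and 6.95 in SZ, 9.72, 9.75, 9.67 and 9.80 in IDZ and 8.93, 9.12, 8.69 and 8.68 in RZ. The IDZ arrays differed little (SD 0.06) and lay above all arrays of both other zones, and the SZ arrays were the lowest and the most variable (SD 0.56). Sfrp1 was lower in SZ than in IDZ by 2.17 (difference -2.17 ± 0.21, adjusted p = 1.8e-06 in limma), a 4.51-fold difference, and lower in SZ than in RZ (difference -1.29 ± 0.21, adjusted p = 0.00025). It was higher in IDZ than in RZ by 0.88 ± 0.21 (adjusted p = 0.018). That last call was lost with the animal pair as a fixed block (adjusted p = 0.057) and without IDZ replicate 2 (0.054), RZ replicate 3 (0.054) or RZ replicate 4 (0.061). In all, 5 of 21 alternatives other than the fold minima lost it, and without SZ replicate 4 the adjusted p was 0.0017.

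Frzb (cluster 10846740) separated SZ from the other zones. It measured 10.46, 10.35, 11.01 and 10.74 in SZ, 12.27, 12.28, 12.30 and 12.37 in IDZ and 12.20, 12.14, 11.99 and 11.96 in RZ. All SZ arrays lay below the arrays of both other zones. The difference was -1.67 ± 0.13 for SZ minus IDZ (adjusted p = 1.9e-07 in limma) and -1.43 ± 0.13 for SZ minus RZ (adjusted p = 5.4e-07). IDZ exceeded RZ by 0.24 ± 0.13, and although the 4 IDZ arrays lay above the 4 RZ arrays this did not pass the test (adjusted p = 0.33). Sfrp2 was the only other member whose IDZ and RZ arrays did not overlap without a call.

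Sfrp2 (cluster 10816144) had its highest mean in SZ. It measured 10.60, 10.77, 10.68 and 10.01 in SZ, 10.29, 10.18, 10.02 and 10.07 in IDZ and 9.94, 9.44, 9.59 and 9.44 in RZ. SZ replicate 4 lay below every IDZ array, while the other SZ arrays lay above all of them. The difference of SZ from RZ was 0.91 ± 0.16 (adjusted p = 0.00047 in limma). The difference of SZ from IDZ was 0.37 ± 0.16 (adjusted p = 0.10). It became 0.54 without SZ replicate 4 (adjusted p = 0.0021), and cyclic loess scaling also brought it past the threshold (adjusted p = 0.022). For IDZ and RZ the arrays did not overlap, and the difference of 0.54 ± 0.16 had an adjusted p of 0.054 with all arrays. It was 0.0039 without SZ replicate 4, which enters this comparison through the shared estimate of the spread. In all, 8 of 21 alternatives other than the fold minima brought this difference past the threshold. Among them were the 2 zones alone (adjusted p = 0.0076), cyclic loess (0.0068) and quantile normalization (0.0062). With the animal pair as a fixed (0.070) or random (0.093) block it did not pass.

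Sfrp4 (cluster 10798610) measured 6.62, 6.39, 6.14 and 6.07 in SZ, 5.71, 5.99, 6.15 and 6.21 in IDZ and 6.53, 6.48, 6.68 and 6.69 in RZ. The IDZ arrays lay below all RZ arrays, and the SZ arrays overlapped with both. IDZ was lower than RZ by 0.58 (difference -0.58 ± 0.13, adjusted p = 0.016 in limma). This call did not survive leaving out IDZ replicate 1 (adjusted p = 0.060), IDZ replicate 2 (0.053), RZ replicate 3 (0.050, just above the threshold) or RZ replicate 4 (0.056). SZ differed from IDZ by 0.29 ± 0.13 (adjusted p = 0.14, and 0.035 without SZ replicate 4) and from RZ by -0.29 ± 0.13 (adjusted p = 0.17). All values lay below the array medians, and the values carry no call of detection, so how far this cluster rose above the background of the array was not tested.

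Of the Dickkopf genes, Dkk3 (cluster 10724967) showed the widest range of zone means among the 9 members, 4.29. It measured 10.79, 10.84, 10.51 and 10.25 in SZ, 7.60, 7.36, 7.21 and 6.40 in IDZ and 6.20, 6.26, 6.53 and 6.24 in RZ. The SZ arrays stood well above all others, whereas IDZ replicate 4 lay within the range of the RZ arrays. SZ was higher than IDZ by 3.45 ± 0.21 (adjusted p = 2.4e-08 in limma), a 10.9-fold difference, and higher than RZ by 4.29 ± 0.21 (adjusted p = 9.7e-10). IDZ was higher than RZ by 0.84 ± 0.21 (adjusted p = 0.024). With the animal pair as a random block the adjusted p was 0.067, and the call was also lost without IDZ replicate 1 (0.085), 2 (0.089) or 3 (0.073) and without RZ replicate 1 (0.073), 2 (0.065) or 4 (0.069). Without IDZ replicate 4 the difference was 1.08 (adjusted p = 0.00067).

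Dkk1 (cluster 10729667), the best-known inhibitor that acts through Lrp5 and Lrp6, was highest in IDZ. It measured 6.91, 5.73, 6.03 and 6.84 in SZ, 7.69, 7.83, 8.22 and 8.83 in IDZ and 6.59, 7.18, 7.34 and 7.14 in RZ. The IDZ arrays did not overlap with either other zone, while SZ and RZ overlapped. Dkk1 was lower in SZ than in IDZ by 1.76 (difference -1.76 ± 0.28, adjusted p = 0.00025 in limma). It was higher in IDZ than in RZ by 1.08 ± 0.28 (adjusted p = 0.030), a 2.12-fold difference. The first call was lost when tested against a 2-fold difference in limma (treat, adjusted p = 0.39). The second call was lost without IDZ replicate 4, which had the highest value (difference 0.85, adjusted p = 0.086), and without IDZ replicate 3 (0.085), RZ replicate 1 (0.11), RZ replicate 2 (0.060) or RZ replicate 4 (0.066). SZ differed from RZ by -0.68 ± 0.28 (adjusted p = 0.11), and this passed the threshold with the animal pair as a fixed block (-0.96, adjusted p = 0.047) and without SZ replicate 4 (-0.84, adjusted p = 0.040).

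Dkk2 (cluster 10819074), which like Dkk1 binds Lrp6, was not called in any comparison. Its values were 5.78, 5.65, 6.03 and 6.05 in SZ, 5.90, 5.93, 5.64 and 5.78 in IDZ and 5.50, 5.55, 5.74 and 5.54 in RZ. All lay below the median of their array and the zones overlapped. The difference was 0.07 ± 0.11 for SZ minus IDZ (adjusted p = 0.72 in limma), 0.23 ± 0.11 for IDZ minus RZ (adjusted p = 0.27) and 0.29 ± 0.11 for SZ minus RZ (adjusted p = 0.073), and the last passed at 0.024 without SZ replicate 2, at 0.028 after cyclic loess and at 0.029 after quantile normalization.

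Promoter windows, 250 bases before to 50 after the start of the gene, were taken from RefSeq on the rat assembly GRCr8 to see whether members carry the sequence that TCF and LEF factors recognize. A window was found for Sfrp2, Sfrp5, Frzb, Wif1 and Dkk1. CTTTGAT and CTTTGAA were searched on both strands, and 1 of these 5 windows, that of Dkk1, held a match. Of 33469 rat promoters of this length, 3.63% held CTTTGAT, 5.40% held CTTTGAA and 8.73% held either. The part of the Dkk1 window before the start, chr1:237798651-237798900 on the minus strand, is shown with the match in capitals, which begins 96 bases before the start (position -96). A match is a description of the letters and not evidence of binding.
Dkk1: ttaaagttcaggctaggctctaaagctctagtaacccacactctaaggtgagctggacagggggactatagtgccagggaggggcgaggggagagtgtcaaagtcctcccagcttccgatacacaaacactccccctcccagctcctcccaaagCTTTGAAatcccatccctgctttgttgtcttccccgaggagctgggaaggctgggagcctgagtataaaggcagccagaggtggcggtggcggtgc

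Some relatives differed in how they changed between zones. The log2 difference between 2 relatives was taken on each array, which cancels any scaling of the whole array, and its zone means were compared by exact permutation (two-sided), for which 8 arrays allow 70 assignments and a smallest p of 0.0286. Of 15 tests, 5 pairs in 3 comparisons, 11 reached that value, which is 0.039 after Benjamini-Hochberg adjustment over the 15. The adjusted value depends on how many tests share the smallest p. Those 11 include tests of Frzb minus Sfrp4 and of Dkk1 minus Dkk2, which are set aside below. They also include tests that could not miss the smallest p, because each relative alone separated the zones, in opposite directions. This held for Sfrp1 minus Sfrp5 (IDZ minus RZ) and Sfrp1 minus Sfrp2 (SZ minus RZ). It also held for Dkk1 minus Dkk3 (SZ minus IDZ) and Frzb minus Sfrp4 (IDZ minus RZ). The p of such a test adds nothing to the separate tests of the genes. Arrays were permuted as if independent, although arrays of different zones shared animals. Sfrp1 minus Sfrp5 averaged -0.96 ± 0.57 in SZ (SD, n = 4), -0.61 ± 0.43 in IDZ and -3.32 ± 0.14 in RZ. Sfrp1 was thus higher relative to Sfrp5 in IDZ and SZ than in RZ, by 2.71 for IDZ minus RZ and 2.36 for SZ minus RZ (exact permutation p = 0.0286 each), while SZ minus IDZ gave -0.35 (exact permutation p = 0.40). Sfrp1 minus Sfrp2 averaged -2.95 ± 0.38 in SZ, -0.40 ± 0.13 in IDZ and -0.75 ± 0.30 in RZ (SD), and SZ differed from both other zones, by -2.55 from IDZ and -2.20 from RZ (exact permutation p = 0.0286 each), with 0.35 between IDZ and RZ (exact permutation p = 0.114).

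Dkk1 minus Dkk3 averaged -4.22 ± 0.74 in SZ, 1.00 ± 1.02 in IDZ and 0.75 ± 0.25 in RZ (SD). These relatives moved in opposite directions between SZ and IDZ, by -5.22 in all (exact permutation p = 0.0286). That p was fixed beforehand, since each gene alone already separated the SZ arrays from the IDZ arrays. IDZ and RZ gave 0.24 (exact permutation p = 0.771), a value whose sign turned without IDZ replicate 4 (-0.23). The remaining pairs, Frzb minus Sfrp4 and Dkk1 minus Dkk2, set a member against one that lay below the array median on all arrays. Since Sfrp4 and Dkk2 were not shown to be above background, the changes of these pairs (for SZ minus IDZ, -1.96 and -1.83) add nothing to those of Frzb and Dkk1 alone (-1.67 and -1.76). The absolute size of such a difference depends on the probes of both clusters, so only its change between zones is read.

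**Figure D3:**
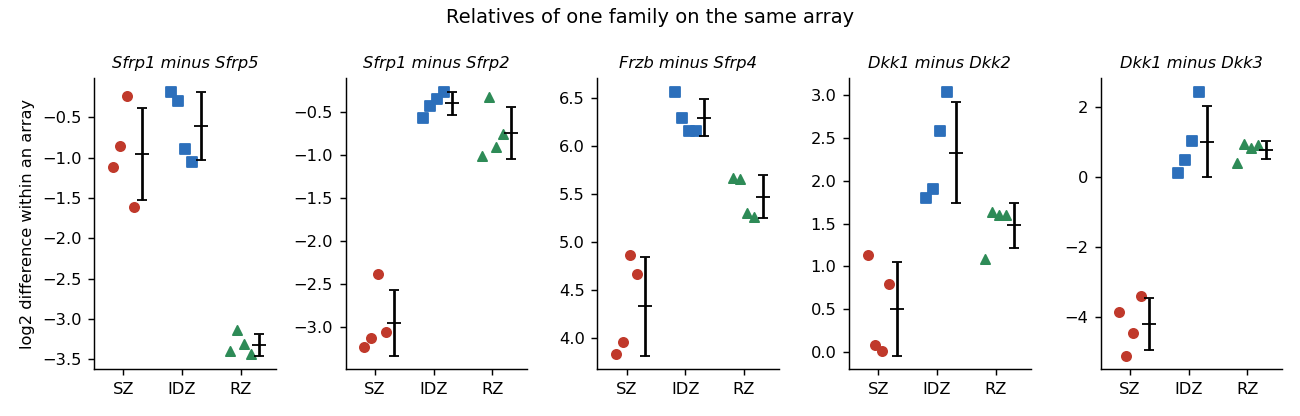
Within-array log2 difference between 2 relatives on each array, with red circles for SZ, blue squares for IDZ and green triangles for RZ, and with the mean and SD of 4 arrays per zone. Sfrp1 minus Sfrp5 is lowest in RZ, and Dkk1 minus Dkk3 is lowest in SZ.

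Genes of several other tissues, but not of all examined, were high in SZ as Dkk3 and Wif1 were. Sfrp2 had its highest mean in SZ too, but was not called higher there than in IDZ (adjusted p = 0.10 in limma). The 7 tendon and fibrous tissue genes measured were all called higher in SZ than in IDZ, with list means per array of 10.71 to 11.29 in SZ, 7.40 to 8.14 in IDZ and 6.75 to 7.08 in RZ. Tnmd, a marker of tendon and ligament, measured 9.38 to 10.36 in SZ, 5.26 to 5.29 in IDZ and 4.78 to 5.08 in RZ. All 4 endothelial genes measured (8.92 to 9.57 in SZ, 6.45 to 6.93 in IDZ, 6.22 to 6.56 in RZ), all 4 mural cell genes (9.60 to 10.01, 7.21 to 7.77 and 6.99 to 7.24 in the same order), all 6 macrophage genes (8.50 to 9.27, 6.72 to 6.88 and 6.43 to 7.16) and 3 of 4 synovial fibroblast genes (9.29 to 9.78, 7.01 to 7.42 and 7.05 to 7.53) were also called higher in SZ than in IDZ. Of the 7 chondrocyte genes, 6 were called lower in SZ than in IDZ. Of 5 muscle genes none was called higher and 1 lower in SZ than in IDZ (list means 7.17 to 8.13 in SZ and 7.55 to 7.82 in IDZ), of 4 osteoblast genes 1 was higher and 1 lower, and of 4 hypertrophic chondrocyte genes 1 was higher and 2 were lower. The part of these other cell types in the SZ levels of Dkk3, Wif1 and Sfrp2 was not tested. Nor was that of fewer chondrocytes in the SZ levels of Sfrp1, Sfrp5, Frzb and Dkk1. In such tissue samples fewer cells of a type and less RNA per cell cannot be told apart. Between IDZ and RZ the endothelial, macrophage and chondrocyte lists had no called gene, while 2 of 7 tendon and fibrous tissue genes and 1 of 4 mural cell genes were higher in IDZ, 1 of 5 muscle genes was higher, and 1 of 4 synovial fibroblast genes and 1 of 4 hypertrophic genes were lower.

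Within IDZ the arrays differed most in Dkk3, Dkk1 and Sfrp5 (SD 0.52, 0.51 and 0.44). IDZ replicate 4 had the lowest Prg4 (8.86, against 10.61 to 10.95 on the other IDZ arrays), the lowest Dkk3 (6.40 against 7.21 to 7.60) and the lowest Wif1 (7.99 against 8.41 to 8.56). It also had the highest Sfrp5 (10.86) and the highest Dkk1 (8.83) of the IDZ arrays, and the lowest mean of the tendon and fibrous tissue list (7.40). Sfrp1 and Frzb lay within 0.07 of their IDZ mean on all 4 IDZ arrays. Without this array the IDZ means were 7.39 ± 0.20 for Dkk3, 8.48 ± 0.07 for Wif1, 10.18 ± 0.34 for Sfrp5 and 7.91 ± 0.27 for Dkk1 (SD, n = 3). How the cut between the zones fell on this array was not tested.

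**Figure D4:**
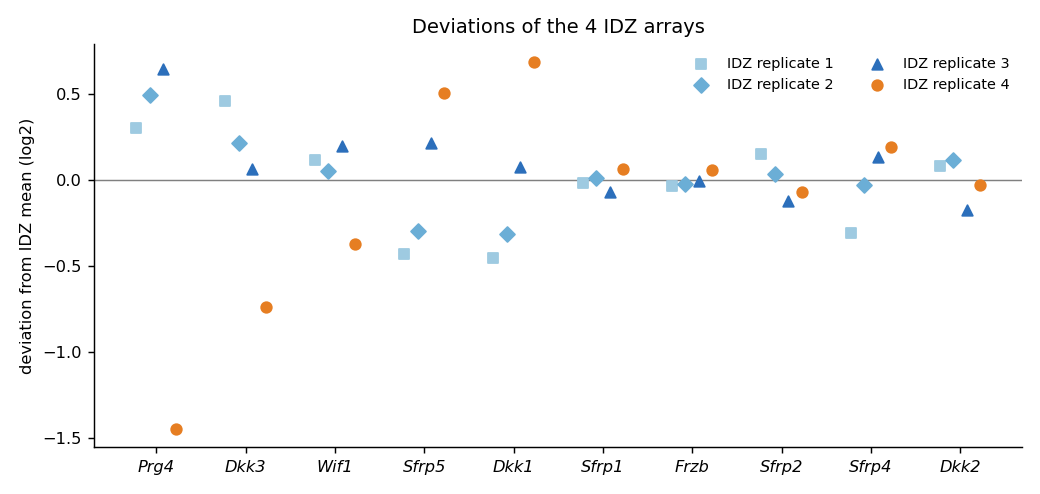
Deviation of each IDZ array from the IDZ mean in log2 units for Prg4 and the 9 antagonists, with IDZ replicate 4 in orange and replicates 1 to 3 in blue. Replicate 4 lies lowest for Prg4, Dkk3 and Wif1 and highest for Sfrp5 and Dkk1, and the points of Sfrp1 and Frzb lie close to 0.

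The genes whose levels followed each member most closely are given as a description over 12 arrays in 3 zones, which makes high correlations common. For Wif1 they were Igfbp7 (Pearson r = 0.997), Plpp3 (0.995) and Gpm6b (0.995), and for Dkk3 they were Dpysl3 (0.997), the endothelial gene Plvap (0.997) and the interferon-induced gene Ifitm3 (0.996). Sfrp5 was followed most closely by Prtg (0.993), the vitamin D receptor gene Vdr (0.989) and Fam89a (0.986). Vdr measured 8.23 in SZ, 8.96 in IDZ and 9.70 in RZ (zone means), the same order as Sfrp5. Sfrp1 was followed by the chromatin organizer gene Satb1 (0.990), the protease inhibitor gene A2m (0.986) and the matrix metalloproteinase gene Mmp16 (0.978), and Frzb by Extl1 (0.987), Art3 (0.986) and Pla2g5 (0.985). The closest genes of Sfrp2 (Cdc14a, 0.965), Sfrp4 (Gch1, 0.926), Dkk1 (Rplp0, 0.928) and Dkk2 (Gpr160, 0.903) were less alike. Among the members, Wif1 and Sfrp5 ran opposite (r = -0.984), and Wif1 with Dkk3 (0.959) and Sfrp1 with Frzb (0.922) ran together.

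Other parts of the Wnt pathway were described from lists of 86 measured genes. Between SZ and IDZ 22 of 86 were called higher and 7 lower in SZ, 33.7% in all, between IDZ and RZ 7 were called higher and 9 lower in IDZ, 18.6% in all, and between SZ and RZ 21 were called higher and 10 lower in SZ, 36.0% in all. Among the 14300 genes the shares were 26.6% between SZ and IDZ (17.0% higher and 9.56% lower in SZ), 8.80% between IDZ and RZ (3.22% higher and 5.58% lower in IDZ) and 26.7% between SZ and RZ (14.5% higher and 12.2% lower in SZ). Of 7 other extracellular inhibitors, 3 were higher in SZ than in IDZ. These were Igfbp4 (difference 2.03 ± 0.17, adjusted p = 3.9e-07 in limma), an IGF-binding protein that can also inhibit Wnt signaling, Notum (1.13), an enzyme that removes the lipid of Wnt ligands, and Tpbg (0.90), a membrane protein described as a Wnt inhibitor in zebrafish. Notum and Tpbg were lower in IDZ than in RZ (-0.65 and -0.89), and IDZ was thus the zone with the lowest mean of both. The Notum call was lost with the animal pair as a fixed block (adjusted p = 0.063). Dkk4, a further Dickkopf gene, is counted in this list and averaged 6.50 in SZ, 6.63 in IDZ and 6.44 in RZ, and it was not called in any comparison. Sost, which like Dkk1 binds Lrp5 and Lrp6, averaged 7.57 in SZ, 7.67 in IDZ and 7.61 in RZ and was not called.

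Of the 17 Wnt ligands measured, the targets of some of these inhibitors, 1 was called between SZ and IDZ (5.88%). Between IDZ and RZ 3 were called (17.65%), and between SZ and RZ 1 was called (5.88%). The shares over the 14300 genes were 26.6%, 8.80% and 26.7% in the same order. Some ligands, such as Wnt1, Wnt8a and Wnt16, lay below the array medians on all arrays, as did Wnt5a in IDZ. Whether these were above background was not tested. Wnt5a, a ligand that mostly signals without β-catenin, was higher in SZ than in IDZ (0.63 ± 0.09, adjusted p = 5.7e-05 in limma) and lower in IDZ than in RZ (-0.53 ± 0.09, adjusted p = 0.0011). Wnt4 was lower in SZ than in RZ (-0.79 ± 0.15, adjusted p = 0.0012), and its difference for IDZ minus RZ (-0.56, adjusted p = 0.040) was lost with the animal pair as a fixed (0.094) or random (0.054) block. Of the receptors, 6 of 14 were higher and 1 was lower in SZ than in IDZ. Fzd4 followed the order of Wif1, with differences of 2.58 for SZ minus IDZ, 1.29 for IDZ minus RZ and 3.87 for SZ minus RZ (standard error 0.16 each, adjusted p = 3.1e-08, 0.00012 and 2.2e-10). Fzd8 did as well (1.71, 0.47 and 2.18), although its call between IDZ and RZ was lost with the fixed block (adjusted p = 0.053).

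The co-receptor Lrp5, which Dkk1 binds, was higher in IDZ than in RZ by 0.64 ± 0.10 (adjusted p = 0.00071 in limma) and averaged 10.42 in SZ, 10.36 in IDZ and 9.72 in RZ. Lrp6 averaged 10.36 in SZ, 10.45 in IDZ and 10.36 in RZ and was not called. Kremen1, which cooperates with Dkk1 in removing Lrp6 from the cell surface, was higher in SZ than in IDZ by 0.79 ± 0.12 (adjusted p = 0.00017). Among the R-spondins, secreted agonists that act through Lgr receptors, Rspo2 was higher in SZ than in IDZ by 0.76 ± 0.18 (adjusted p = 0.0054), whereas Rspo3 had the opposite sign in the same comparison (adjusted p = 3.7e-09) and averaged 7.73 ± 0.29 in SZ, 10.39 ± 0.09 in IDZ and 10.49 ± 0.10 in RZ (SD, n = 4). Lgr5 was higher in SZ than in IDZ by 1.81 ± 0.17 (adjusted p = 1.7e-06).

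Further downstream the factor Lef1 was lowest in SZ and highest in RZ, with 7.79 ± 0.11 in SZ, 8.27 ± 0.18 in IDZ and 9.49 ± 0.20 in RZ (SD, n = 4). The difference was -1.22 for IDZ minus RZ (adjusted p = 1e-05 in limma) and -1.71 for SZ minus RZ (adjusted p = 4.1e-08), and that for SZ minus IDZ, -0.49, was lost with the fixed block (adjusted p = 0.066). Tle1, a co-repressor of these factors, was higher in IDZ than in RZ by 1.36 ± 0.13 (adjusted p = 8.3e-06). Of 11 genes that Wnt signals can induce, 3 were called higher and 1 lower in SZ than in IDZ, 2 higher and 1 lower in IDZ than in RZ, and 4 higher and 1 lower in SZ than in RZ. With the animal pair as a fixed block these counts lost at least Ccn4 (adjusted p = 0.14) and the single lower gene Tnfrsf19 (0.053) between SZ and IDZ, Axin2 (0.069) between IDZ and RZ, and Ccn5 (0.053) and Tnfrsf19 (0.061) between SZ and RZ. Axin2, a feedback inhibitor, averaged 7.35 in SZ, 7.17 in IDZ and 6.84 in RZ, higher in SZ than in RZ by 0.51 ± 0.08 (adjusted p = 0.00020). Ccn4 showed the same order, with 1.44 for IDZ minus RZ and 1.83 for SZ minus RZ (adjusted p = 1.1e-06 and 1.2e-08). The cyclin gene Ccnd1 was lowest in IDZ, with 1.62 for SZ minus IDZ and -1.44 for IDZ minus RZ (adjusted p = 1.8e-07 and 2.6e-06).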

How the data were processed

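The 12 samples, 4 each of SZ, IDZ and RZ, were hybridized to Rat Gene 1.0 ST arrays (Affymetrix). The deposited values are log2 values that the authors made by robust multi-array average (background adjustment, quantile normalization, 1 value per transcript cluster) in Partek Genomics Suite 6.6, and they were used without further normalization. The annotation gives 1 symbol for 15068 of 27342 clusters, and for 495 of 14300 genes with several clusters the brightest was used. It names no genome build, so no gene position is given from it. Promoters are from RefSeq (GRCr8) and were matched by gene ID.

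A model with a mean for each zone was fitted to all 12 arrays with limma 3.58.1 in R 4.3.3, with moderated variances. The p of a gene was adjusted over the clusters of that comparison by the Benjamini-Hochberg method. The study's own model was one-way with a false discovery rate of 0.05 and a minimum of 2-fold. Pairs of relatives were tested by exact permutation in Python 3.11.15. The members, lists, tests and rule for naming genes were chosen with earlier results of these data known. The rule names all members, up to 4 genes per Wnt list and comparison with the largest difference among those called, and the 3 genes most alike to each member. Some genes it allows are not named. Dkk4 is named outside the rule, and Sost and Lrp6 were added after their values were seen. IDZ and RZ arrays of one number share animals by the labels, and the correlations of their deviations from zone means were 0.018, 0.022, 0.027 and 0.205, with a consensus correlation of -0.14 within animal pairs. The limma fit of SZ against IDZ was first run on simulated data with known shifts. The other comparisons, the blocked fits and the permutation were not.

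Alternatives were trended and robust variances, an unmoderated one-way fit, the animal pair as a fixed or random block, fits of 2 zones alone, dim clusters left out, 3 other scalings, 2-fold minima and each array left out. Precision is limited by 4 arrays per zone. Since SZ animals and pooled pairs are few, p-values measure the spread between these samples only. Real-time PCR of the study was not analysed here.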

Additional observations from a re-analysis of the deposited data

Results flagged for a closer look

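Each member was examined in each zone for an array that stands apart, which gave 27 groups of 4 arrays. In 1 of them, Dkk3 in RZ, replicate 3 measured 6.53 while its nearest neighbour measured 6.26, and the gap between them reached the 95% critical value of Dixon's test as a share of the range of the 4 arrays. Chance flags about 1 in 20 such groups. All 4 values lay below the median of their array.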

How the results depend on the processing

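No member changed direction in any comparison under any alternative. Leaving aside the fold minima, 14 of the 18 called differences of members kept their call under all alternatives run, and the 4 that lost it, Sfrp1, Sfrp4, Dkk1 and Dkk3, were all between IDZ and RZ. Of the 9 differences not called, 5 passed under at least 1 alternative. Between IDZ and RZ the members called higher in IDZ numbered 4, and 1 with the unmoderated one-way fit, 2 with the 2-fold minimum, 0 with a test against 2-fold (treat, where 1 member was lower) and 1 to 5 with an array left out (1 without RZ replicate 4, 2 without IDZ replicate 2 or 3 or RZ replicate 2). Those called lower in IDZ numbered 2, and 1 with the unmoderated fit, 1 with the 2-fold minimum, 1 among the 7 members tested when dim clusters were left out (fewer members were tested), and 1 to 2 with an array left out (1 without IDZ replicate 1 or 2 or RZ replicate 3 or 4). Calls over all clusters between IDZ and RZ were 760 higher and 1080 lower in IDZ. They were 547 and 759 with the unmoderated fit, 142 and 109 with the 2-fold minimum, and 34 and 27 with treat. With an array left out they ranged from 458 to 1572 and from 634 to 2353. Between SZ and IDZ the members called higher in SZ ranged from 2 to 4 with an array left out. They were 4 without SZ replicate 4, where the calls higher in SZ over all clusters rose from 3226 to 4953. Treat left 3 of the 4 members called lower in SZ than in IDZ, and 66 of 3064 clusters. Between SZ and RZ, treat left 1 of 3 members called lower in SZ, and 124 of 3026 clusters.

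Of the other Wnt genes, those higher in SZ than in IDZ numbered 22, and 8 with the 2-fold minimum, 5 with treat and 21 to 27 with an array left out. Those lower numbered 7, and 13 with quantile normalization, 1 with the 2-fold minimum, 1 with treat and 6 to 14 with an array left out (14 without SZ replicate 4). Those higher in IDZ than in RZ numbered 7, and 12 with 2 zones alone, 11 with cyclic loess, 3 with the 2-fold minimum, 0 with treat and 5 to 11 with an array left out (11 without SZ replicate 4). Those lower numbered 9, and 19 with 2 zones alone, 2 with the 2-fold minimum, 0 with treat and 5 to 18 with an array left out (5 without IDZ replicate 3, 18 without SZ replicate 4). For SZ and RZ the 21 higher became 8 with the 2-fold minimum and 5 with treat, and the 10 lower became 2 with either. Over all clusters the 2747 higher became 873 and 453, and the 3026 lower became 368 and 124. Between SZ and IDZ the 3226 clusters higher in SZ became 810 and 324 in the same order. Clusters lower in SZ than in IDZ numbered 3064, and 3655 with quantile normalization, 267 with the 2-fold minimum and 6414 without SZ replicate 4. Clusters higher in IDZ than in RZ numbered 760, and 1711 with 2 zones alone, 1178 with cyclic loess and 1572 without SZ replicate 4. Clusters lower in IDZ numbered 1080, and 2435 with 2 zones alone, 634 without IDZ replicate 3 and 2353 without SZ replicate 4. The cause of these changes was not tested.

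With the animal pair as a fixed replicate block, the other Wnt genes lower in SZ than in IDZ numbered 2 instead of 7. Over all clusters those lower numbered 1737 instead of 3064. For relatives, the mean difference within the 4 pairs of animals equals the difference of the zone means by arithmetic (2.71 for Sfrp1 minus Sfrp5), so the pairing tests nothing there. Beside the calls named with the results, the block changed no call of a member, and of the differences printed for other Wnt genes it ended no further call. No value could be had from every cluster of a member, since each has 1. Signal over background is unknown, which limits Sfrp4 and Dkk2 most.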
